A study of Sus scrofa with 6 samples.

Results

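Expression of 44 genes of the TGF-β, BMP and WNT signalling pathways was compared between aortic valve leaflets of male and female pigs. The genes were chosen by name, by a rule drawn up with earlier results of these data known. Symbols of TGF-β, activin, BMP and WNT ligands, receptors, antagonists and effectors were taken. For 40 of the genes the array annotation gave the name as a single gene, out of 6765 annotated genes. The other 4 genes (SFRP2, WIF1, ROR1 and TPBG) had a name only in the supplementary list of probe sets that the study had called different on these same 6 arrays. Their differences are given as a description and are not independent evidence. NDP and LEF1, among the 40, are also on that list, so their differences are not independent evidence either. The 44 genes were covered by 65 probe sets of 23999, and each gene is represented by its probe set with the highest mean. The groups were 3 castrated male pigs and 3 female pigs of mixed breed, about 5 months old and weighing about 90 kg, with 1 pig per Affymetrix Porcine Genome Array. Pigs of both groups were healthy slaughter animals, and in both the endothelium on the leaflet surface was scraped off with a scalpel before the whole leaflet was homogenized, so the RNA came from the valve interstitial cells (VICs) together with any cells left behind. Castration leaves the males without testicular hormones, and the comparison is therefore between castrated males and females. LTBP, CTGF, TGFBR2, SMAD2, SMAD6, SMAD7, BMP2, GREM1, LRP5, GSK3B, AXIN2, APC and FRZB were not analysed here.

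These pathways work through secreted ligands. TGF-β and activin ligands bind pairs of receptor kinases that activate SMAD3, BMP ligands use other receptors that activate SMAD1, both join SMAD4, and the ID genes are classic targets of the BMP arm. WNT ligands bind Frizzled receptors with the co-receptor LRP6 and stabilise β-catenin, which acts in the nucleus with LEF1 and the TCF factors, while DKK, SFRP and WIF1 proteins hold this signal back outside the cell. In the aortic valve, TGF-β is known for turning VICs into myofibroblasts, and BMP and WNT signals are studied for their part in calcification.

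Values are log2 expression levels after robust multi-array averaging (RMA), so a difference of 1 is a 2-fold difference, and all differences are male minus female. Array medians lay between 7.33 and 7.38 and the correlation between 2 arrays of one sex was 0.987 to 0.993. The sex-linked transcripts matched the stated sex on 6 of 6 arrays. Markers of valve interstitial cells and fibroblasts were present on each array (summed unlogged level of 10 markers 122941 to 139458 in males and 139528 to 156867 in females). Endothelial markers were also still present after scraping, with 1 of 15 (KDR) below the 25th percentile of the array (5.52) in both sexes at the annotated probe set, and their sum was 16628 to 33898 in males and 11099 to 18793 in females. Another probe set, which only the supplementary list names KDR and which is not in the sum, was at 9.53, 9.23 and 8.62 in males, against 6.07, 7.05 and 7.16 in females. Of 8 cardiomyocyte markers, 5 had both means below that percentile. In whole-tissue RNA, fewer cells of a type and less RNA per cell cannot be told apart. The number of arrays limits the precision, and with 3 arrays per sex the smallest p of an exact permutation test is 0.1, so gene-wise p values are those of limma.

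The WNT branch held most of the members whose sexes were apart. In part this is because it holds the 4 genes named only by the supplementary list, and NDP and LEF1, which are on that list too. Of 18 WNT genes, 9 had male and female values that did not overlap (5 higher and 4 lower in males), against 2 of 26 genes of the TGF-β, activin and BMP branches (1 higher, BMP7, and 1 lower, BMPR1A). Among the 14 WNT genes that the annotation named, 5 did not overlap, 2 higher (NDP and LEF1) and 3 lower in males. For comparison, 15.7% of all annotated genes were higher in males without overlap and 9.08% were lower. Whether the share of WNT genes differs from that of other genes was not tested.

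Few members passed the test over the whole array. Calls required both a 2-fold difference and a limma p value, adjusted over the comparison, under 0.05. Over all 23999 probe sets, 0.304% were called, and 3 of the 44 genes were among them, all higher in males: NDP, ROR1 and TPBG. In a second comparison that kept the 10% of probe sets with the highest coefficient of variation (CV, the SD divided by the mean), 7.59% of 2412 probe sets were called. Of the 44 genes, 11 were kept by this filter and 6 were called, 5 higher in males (TPBG, ROR1, NDP, LEF1 and SFRP2) and 1 lower (WIF1). The share of 10% had been inferred from the adjusted p values of the study's supplementary list. With it, 183 probe sets were called, the same number as on that list. The 6 called members are those of the 44 that are on it, so the second comparison is not independent of the list. The filter also favours probe sets whose sexes differ, so these 6 calls are no support beyond the values below. The methods of the study name a CV filter, and their supplement gives its purpose as leaving out values too unlike between replicates, which runs against keeping the most variable probe sets over all 6 arrays. A filter nearer to that purpose used a within-sex CV, the SD pooled over both sexes divided by the mean of the 6 arrays. It kept the 12061 probe sets with the lower values and held 20 of the 44 genes but none of these 6. Limma then called 26 of the 12061 probe sets and 0 of the 20 genes (4 at an unadjusted p under 0.05). With so few calls among all probe sets kept, 0 of 20 says little about these genes. Among the 40 genes named by the annotation, only NDP was called over all probe sets, and NDP and LEF1 with the CV filter. Both are on the supplementary list as well. Many of these calls were lost when 1 array was left out. The 3 calls over all probe sets became 0 without male 2 or female 3. They became 1 without male 1 (ROR1) or female 1 (TPBG), and a single call of another gene, ID2, without female 2. The differences of NDP, ROR1 and TPBG stayed above 2-fold with each array left out. Each such fit also has fewer arrays and so less precision, and the part of any particular array in the lost calls was not tested.

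Most members differed by less than 2-fold. The median difference was -0.01 over the 44 genes and 0.05 over 1 probe set per annotated gene, and the median absolute difference was 0.24 and 0.15. An unadjusted p under 0.05 was reached by 14 of 44 genes (9 higher and 5 lower in males) and by 10 of the 40 named by the annotation, against 17.5% of all annotated genes. For 30 of the 44 genes the 95% interval of the difference excluded a 2-fold change in either direction (68.2%), against 88.9% of annotated genes. All 26 TGF-β, activin and BMP genes fell short of a call with limma in both comparisons, and 4 of them reached an unadjusted p under 0.05 (TGFB1, TGFB2, BMP7 and ID2).

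**Figure D1:**
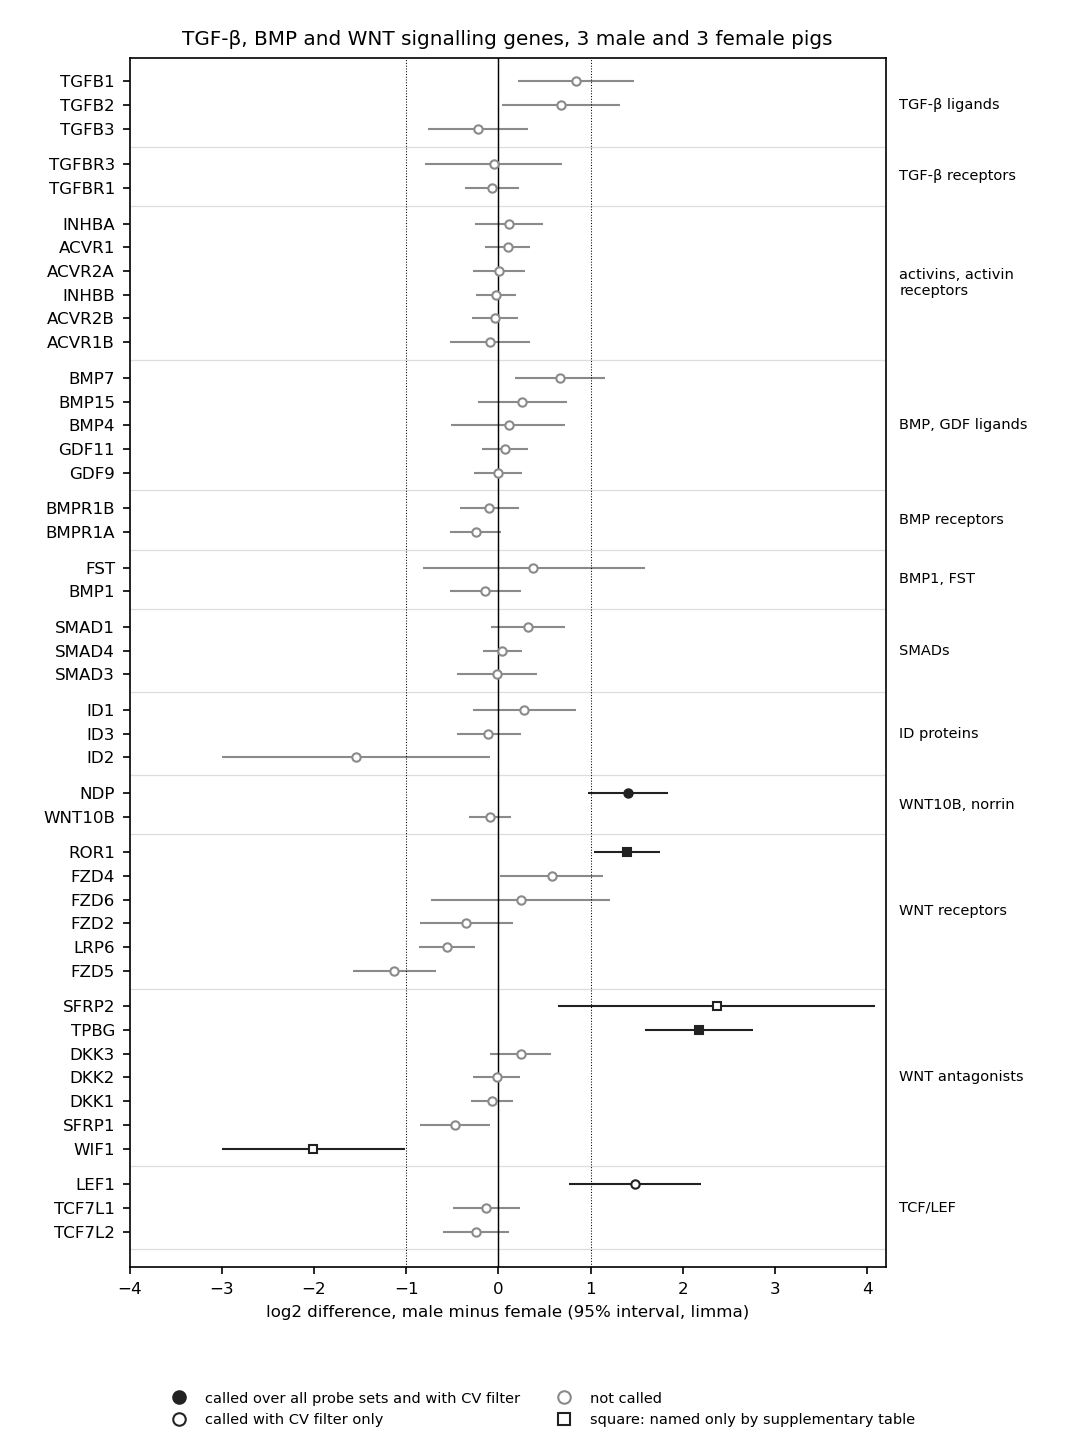
Log2 difference between male and female leaflets for the 44 genes, grouped by role, with 95% intervals from limma (3 pigs per sex). Filled black symbols are called over all probe sets and with the CV filter, open black symbols with the CV filter only, grey symbols in neither, and squares mark the 4 genes named only by the supplementary list. The intervals of TPBG, ROR1, NDP and LEF1 lie to the right of 0, those of WIF1, FZD5 and LRP6 to the left, and the estimates of the activin group lie between -0.09 and 0.11.

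Among the members named by the annotation, NDP was the only one called in both comparisons. Its probe set is also on the supplementary list that the study called on these same arrays, so these calls are not independent evidence. NDP encodes norrin, a secreted protein that is no WNT but activates β-catenin through the receptor FZD4, and its gene lies on the X chromosome in humans. NDP was at 7.42, 7.36 and 7.69 in the 3 males, against 6.23, 5.70 and 6.31 in the 3 females. The lowest male lay 1.05 above the highest female. The difference was 1.41 (standard error 0.18, 95% interval 0.97 to 1.84), or 2.65-fold, with an adjusted p of 0.0431 over all probe sets and 0.0302 with the CV filter. Over all probe sets the call was lost without male 1, male 2 or any 1 of the females (adjusted p 0.0560 to 0.150) while the difference stayed between 1.22 and 1.52, and with the CV filter it was lost without the same 5 arrays (adjusted p 0.0590 to 0.0916).

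FZD4, the Frizzled receptor of norrin, is given with its values because it partners norrin and was chosen after its values were seen. It was at 11.99, 11.65 and 11.06 in males, against 11.21, 10.86 and 10.90 in females. Male 3 lay within the female range, and the difference of 0.58 did not pass (95% interval 0.02 to 1.13, adjusted p = 0.286). The other FZD4 probe set gave 0.88, also higher in males. TSPAN12, a tetraspanin that strengthens norrin signalling at FZD4 and is not among the 44 genes, was at 11.09, 10.69 and 10.32 in males, against 9.57, 10.24 and 9.77 in females. The sexes did not overlap for TSPAN12, and its difference of 0.84 did not pass (95% interval 0.28 to 1.41, adjusted p = 0.177). The summed endothelial level was also higher in males (16628 to 33898, against 11099 to 18793 in females), and its part in the NDP, FZD4 and TSPAN12 values was not tested.

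Other WNT receptors went in both directions. LRP6, the co-receptor that WNTs and norrin share, was at 8.94, 9.12 and 9.13 in males, against 9.77, 9.69 and 9.40 in females. All males lay below all females, but the difference of -0.56 did not pass (95% interval -0.86 to -0.25, adjusted p = 0.136), and the other LRP6 probe set gave -0.40. FZD5, a Frizzled receptor, was at 6.98, 6.32 and 6.65 in males, against 7.67, 7.64 and 8.03 in females. The highest male lay 0.66 below the lowest female. The difference of -1.13 (standard error 0.19, 95% interval -1.58 to -0.68) missed the threshold in both comparisons (adjusted p = 0.0739 over all probe sets and 0.0569 with the CV filter). It passed in both with arrays weighted by quality (adjusted p = 0.0279 and 0.0107), and also when the CV filter kept the top 20% (adjusted p = 0.0416). These were 1 of 13 alternatives over all probe sets and 2 of 14 with the CV filter. FZD5 did not pass with any 1 array left out (adjusted p 0.0742 to 0.220 over all probe sets and 0.0600 to 0.219 with the CV filter). FZD2 and FZD6 overlapped between the sexes, with differences of -0.35 and 0.24.

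ROR1, a receptor tyrosine kinase that binds WNT5A and works outside the β-catenin route, is one of the 4 genes known only from the supplementary list. It was at 7.44, 7.03 and 6.93 in males, against 5.66, 5.84 and 5.71 in females. The female values spanned a narrow range close to the 25th percentile of the array, and the lowest male lay 1.09 above the highest female. The difference was 1.39 (standard error 0.15, 95% interval 1.04 to 1.75), or 2.63-fold, with an adjusted p of 0.0209 over all probe sets and 0.0284 with the CV filter. The call over all probe sets was lost without male 2, female 1, female 2 or female 3 (adjusted p 0.0703 to 0.107), and that with the CV filter without male 1, male 2, female 1 or female 3 (0.0702 to 0.112). WNT10B was the only WNT ligand measured, and it was dim on all arrays (5.16 to 5.22 in males and 5.22 to 5.39 in females).

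At the nuclear end of the pathway, LEF1 was higher in males. Like NDP, it was named by the annotation but is also on the supplementary list of called probe sets. LEF1 was at 9.11, 8.96 and 9.99 in males, against 8.30, 7.67 and 7.64 in females. The sexes did not overlap, with male 3 above the other males and female 1 above the other females. The difference was 1.48 (standard error 0.30, 95% interval 0.77 to 2.2), or 2.80-fold, and it passed with the CV filter (adjusted p = 0.0430) but not over all probe sets (adjusted p = 0.111). The call with the CV filter was lost without any 1 of male 1, male 2, male 3, female 2 or female 3 (adjusted p 0.0537 to 0.118, difference 1.17 to 1.68). The related TCF7L1 and TCF7L2 differed by -0.13 and -0.24, and for TCF7L2 the male values of 7.32, 7.39 and 7.70 overlapped the female values of 7.54, 7.67 and 7.92. CTNNB1, which encodes β-catenin and is not among the 44 genes, was at 12.81, 12.79 and 12.75 in males, against 12.80, 12.97 and 13.17 in females (difference -0.20, adjusted p = 0.452). Whether the LEF1 difference exceeds those of the TCF factors was not tested. SOX13, an HMG-box factor known to bind a TCF protein and named only by the supplementary list, was at 8.24, 7.89 and 7.52 in males, against 6.27, 6.53 and 7.0 in females (difference 1.29, adjusted p = 0.0919 over all probe sets and 0.0483 with the CV filter).

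**Figure D2:**
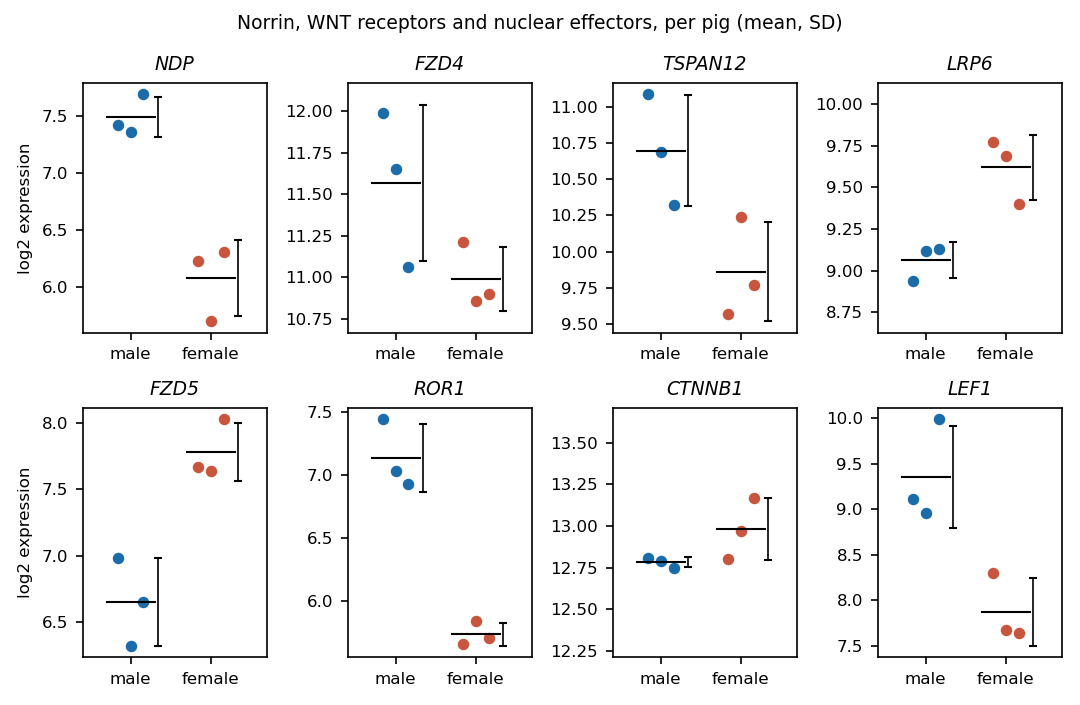
Log2 expression of norrin (NDP), WNT receptors and nuclear effectors in each pig, males left and females right in each panel, with the mean (line) and SD (bar at the side, n = 3). Each panel has its own log2 axis. The sexes are apart for NDP, ROR1, LEF1 and TSPAN12 (males higher) and for LRP6 and FZD5 (males lower), and overlap for FZD4 and CTNNB1.

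The antagonists of WNT signalling went in both directions. The 3 with large differences, TPBG, SFRP2 and WIF1, are members only because the supplementary list had called them on these arrays, and among the 4 antagonists named by the annotation the differences were -0.47 to 0.24. TPBG, a membrane glycoprotein known to inhibit WNT/β-catenin signalling at LRP6, was at 11.00, 10.80 and 10.32 in males, against 8.97, 8.44 and 8.16 in females. The lowest male lay 1.34 above the highest female. The difference was 2.18 (standard error 0.25, 95% interval 1.59 to 2.76), or 4.52-fold, with an adjusted p of 0.0261 over all probe sets and 0.00569 with the CV filter. With the CV filter TPBG was called with each array left out in turn, with a difference of 2.00 to 2.40, whereas over all probe sets the call was lost without male 1, male 2, female 2 or female 3 (adjusted p 0.0879 to 0.132).

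SFRP2, a secreted Frizzled-related protein that binds WNTs, was at 8.99, 5.85 and 7.15 in males, against 5.04, 5.46 and 4.39 in females. The males were scattered, with male 2 close to female 2, and all females lay below the array's 25th percentile, so the size of the difference is uncertain. The difference was 2.37 with a standard error of 0.73 (95% interval 0.65 to 4.08), or 5.16-fold, with an adjusted p of 0.194 over all probe sets and 0.0499 with the CV filter. It was 1.53 without male 1, where the call with the CV filter was lost (adjusted p = 0.114), and 3.11 without male 2, where it was kept (adjusted p = 0.00225). The CV filter call was also lost without female 1 (adjusted p = 0.0770) and without female 3 (adjusted p = 0.118).

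WIF1, the secreted WNT inhibitory factor, ran the other way, at 8.49, 9.78 and 9.15 in males, against 11.78, 10.38 and 11.28 in females. The highest male lay 0.61 below the lowest female, and the difference was -2.01 (standard error 0.42, 95% interval -3.0 to -1.01), or 4.02-fold lower in males, with an adjusted p of 0.115 over all probe sets and 0.0277 with the CV filter. Its call with the CV filter was lost without male 1, female 1 or female 3 (adjusted p 0.0672 to 0.0906). The summed unlogged level of 6 cartilage markers was also lower in males, at 2574, 5076 and 8587 in males, against 14532, 11756 and 17284 in females. Of these 6 markers, 4 were lower in males and 2 of them, ACAN and COMP, passed with the CV filter (differences of -2.29 and -1.85) but not over all probe sets (adjusted p = 0.0691 and 0.176). The sexes overlapped for SOX9 (0.57), HAPLN1 (0.03), COL2A1 (-0.21) and COL11A1 (-0.26). In females COMP (mean 13.28) and ACAN (11.59) were the brightest of the 6, so these genes weigh most in the sum. The order of arrays was not the same in either sex: male 1 and female 2 were lowest for both, but WIF1 was highest in male 2 and female 1 and the cartilage sum in male 3 and female 3. The part of cartilage-like tissue in the WIF1 difference was not tested.

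SFRP1, of the same family as SFRP2, was lower in males. It was at 13.09, 12.53 and 13.03 in males, against 13.30, 13.36 and 13.39 in females. The females, with an SD of 0.05, lay above all males, and the difference of -0.47 did not pass (95% interval -0.85 to -0.09, adjusted p = 0.224). The other SFRP1 probe set gave -0.66, again with no overlap. The DKK family, which includes the classic LRP6 blockers, overlapped between the sexes. DKK2 differed by -0.02 (95% interval -0.27 to 0.23), and its other probe set by 0.03 with a wide interval (-0.85 to 0.91). DKK3, a divergent member, differed by 0.24 (-0.09 to 0.57). DKK1 was among the dimmest members at 2.61 to 2.75 in males and 2.68 to 2.81 in females. It lay below the 25th percentile of the array, so its values say little.

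**Figure D3:**
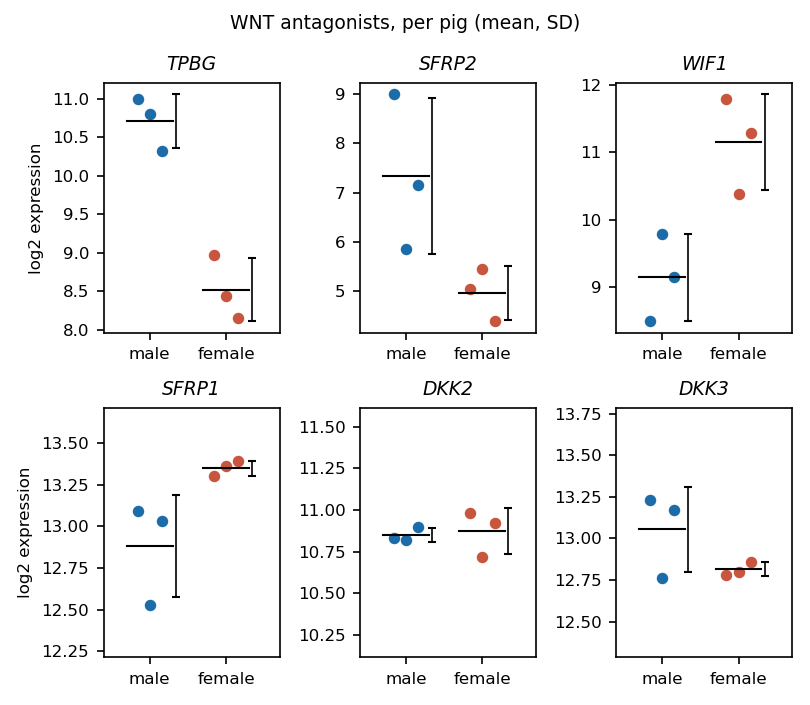
Log2 expression of WNT antagonists in each pig, males left and females right in each panel, with the mean (line) and SD (bar at the side, n = 3). Each panel has its own log2 axis. TPBG and SFRP2 are higher and WIF1 and SFRP1 lower in males without overlap, while DKK2 and DKK3 overlap. TPBG, SFRP2 and WIF1 were named only by the supplementary list of called probe sets.

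Among the TGF-β ligands, TGFB1 and TGFB2 had higher means in males and TGFB3 did not, but none passed. TGFB1, the main inducer of VIC activation, was at 10.36, 10.05 and 9.49 in males, against 9.16, 9.50 and 8.72 in females. Male 3 and female 2 were level, and the difference was 0.84 (standard error 0.27, 95% interval 0.21 to 1.47, adjusted p = 0.204). The other TGFB1 probe set gave 0.43 and did not pass (adjusted p = 0.271). Its male values (7.88 to 8.53) lay above its female values (7.66 to 7.84) by only 0.04.

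TGFB2 was at 11.29, 10.79 and 10.21 in males, against 9.94, 10.37 and 9.94 in females, a difference of 0.68 (95% interval 0.04 to 1.32, adjusted p = 0.274). Its 4 probe sets were all higher in males, by 0.24 to 0.68. TGFB3 was at 10.65, 11.03 and 11.41 in males, against 10.94, 11.56 and 11.24 in females (difference -0.22, 95% interval -0.76 to 0.32), and its other probe set gave 0.08. The overlap of the sexes was thus wide for TGFB3.

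The endothelial markers moved with the same comparison. Their summed unlogged level was 33898, 26551 and 16628 in males, against 12581, 18793 and 11099 in females. Of 15 markers, 13 were higher in males, 7 without overlap, and 15.7% of annotated genes were higher in males without overlap. PECAM1, a defining endothelial marker, differed by 1.11, while CDH5 (0.90), VWF (0.38) and CD34 (-0.03) overlapped between the sexes. Over all probe sets 0 of the 15 were called. ESAM, ICAM2 and CALCRL passed only with the CV filter, which favours probe sets whose sexes differ. TGFB1 had the same order of arrays within each sex as this sum, with male 1 highest and male 3 lowest among males and female 2 highest and female 3 lowest among females. This order was shared by 3 of the 44 genes (TGFB1, INHBA and TCF7L1, 6.82%) and by 8.14% of annotated genes, and the opposite order was held by BMPR1A and FZD2 (4.55%, against 4.30% of annotated genes). The part of residual endothelium in the TGFB1 and TGFB2 differences was not tested.

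**Figure D4:**
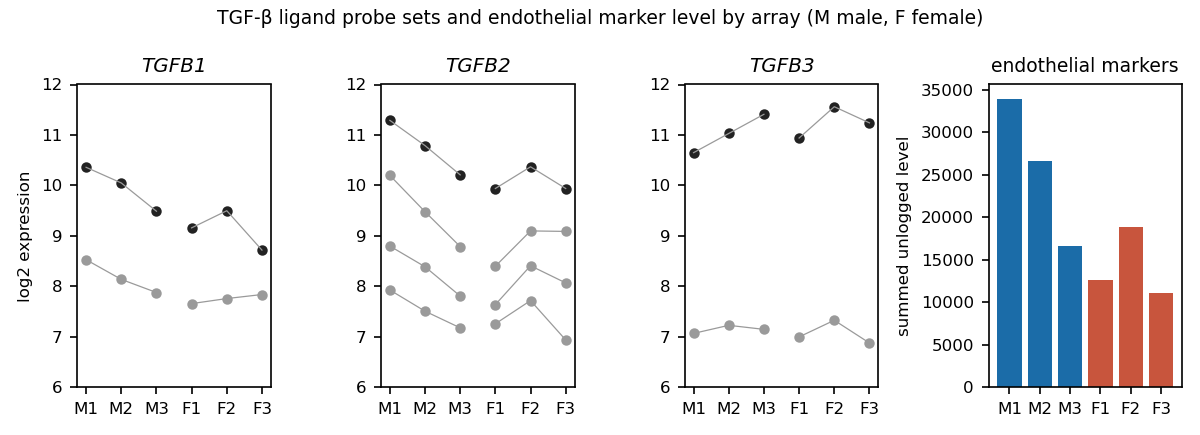
Log2 expression of every probe set of TGFB1, TGFB2 and TGFB3 on each array (M males, F females), with the probe set used for the gene in black and the others in grey, and the summed unlogged level of 15 endothelial markers as bars (males blue, females red). Lines join arrays of the same sex to guide the eye only. All TGFB1 and TGFB2 probe sets have higher means in males, and the endothelial sum is highest in male 1.

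Of the receptors and SMADs that carry these signals, TGFBR1, TGFBR3, SMAD3 and SMAD4 had estimates of -0.07 to 0.04, and SMAD1 had 0.32. TGFBR1, the signalling receptor kinase for TGF-β, was at 10.67, 10.66 and 10.67 in males, against 10.52, 10.77 and 10.92 in females (difference -0.07, 95% interval -0.36 to 0.22). TGFBR3, or betaglycan, which presents TGFB2 to the receptor, was at 6.26, 6.20 and 6.63 in males, against 7.18, 6.02 and 6.05 in females (difference -0.05, 95% interval -0.8 to 0.69). Female 1 was high for TGFBR3 and the other 2 females lay below all males.

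SMAD4, the common partner of both arms, had one of the narrowest intervals. It was at 10.75, 10.67 and 10.65 in males, against 10.66, 10.63 and 10.65 in females (difference 0.04, 95% interval -0.17 to 0.26). SMAD3, which carries the TGF-β and activin signal, differed by -0.02 (95% interval -0.45 to 0.42). SMAD1, which carries the BMP signal, was at 10.22, 10.15 and 9.94 in males, against 10.11, 9.51 and 9.73 in females (difference 0.32, 95% interval -0.08 to 0.72, adjusted p = 0.392). For these 3 SMADs the interval excluded a 2-fold difference.

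The activin subunits INHBA and INHBB and the activin receptors ACVR1, ACVR1B, ACVR2A and ACVR2B all overlapped between the sexes, with differences of -0.09 to 0.11 and intervals inside a 2-fold change for 6 of 6 genes. Follistatin (FST), a secreted protein that binds activin and some BMPs, was at 9.73, 7.84 and 7.64 in males, against 8.16, 8.07 and 7.84 in females. Male 1 alone was high, and the difference of 0.38 (95% interval -0.82 to 1.59, adjusted p = 0.754) was -0.28 without it. BMP4 was also highest in male 1, at 10.82, 9.75 and 9.99 in males, against 10.19, 10.01 and 10.04 in females. Its difference of 0.11 (95% interval -0.51 to 0.72) was -0.21 without male 1.

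BMP7 was the one BMP ligand whose sexes did not overlap. It was at 6.63, 7.14 and 6.81 in males, against 5.79, 6.35 and 6.43 in females. The gap between the lowest male and the highest female was 0.20, and the difference of 0.67 (standard error 0.21, 95% interval 0.18 to 1.16), or 1.59-fold, did not pass (adjusted p = 0.195). The ligands BMP15, GDF9 and GDF11 differed by 0.26, 0.00 and 0.07. BMP1, which despite its name is a protease that trims procollagen, differed by -0.14, with its other probe set at 0.15.

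Of the BMP receptors, BMPR1A was at 10.01, 10.14 and 10.33 in males, against 10.37, 10.37 and 10.47 in females. All males were below all females, but by only 0.04, and the difference of -0.24 did not pass (95% interval -0.52 to 0.03, adjusted p = 0.338). BMPR1B was dim, with both means below the 25th percentile of the array, and its 3 probe sets gave -0.23 to 0.27.

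The ID genes, which encode inhibitors of basic helix-loop-helix factors, did not move together. ID2 was at 7.82, 8.31 and 8.06 in males, against 10.12, 8.02 and 10.67 in females. Females 1 and 3 were high, whereas female 2 lay within the male range. The difference was -1.54 with a standard error of 0.62 (95% interval -3.0 to -0.09, adjusted p = 0.276 over all probe sets and 0.105 with the CV filter). Without female 2 it was -2.33 and passed in both comparisons (adjusted p = 0.0294 and 0.00420). With all 6 arrays it also passed with the CV filter when arrays were weighted by quality (difference -1.75, adjusted p = 0.0205) and when the CV was taken on unlogged values (adjusted p = 0.0486). ID2 thus passed in 1 of 13 alternatives over all probe sets and in 3 of 14 with the CV filter. Female 2 also had the highest endothelial and the lowest cartilage sum of the females, and the part of cell composition in the ID2 values was not tested.

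ID1 was at 12.40, 12.32 and 12.02 in males, against 12.48, 11.87 and 11.55 in females (difference 0.28, 95% interval -0.28 to 0.84). ID3 was at 13.61, 13.92 and 14.00 in males, against 14.13, 13.77 and 13.95 in females (difference -0.11, 95% interval -0.45 to 0.24). Both overlapped widely, and neither had the split of the females that ID2 showed.

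**Figure D5:**
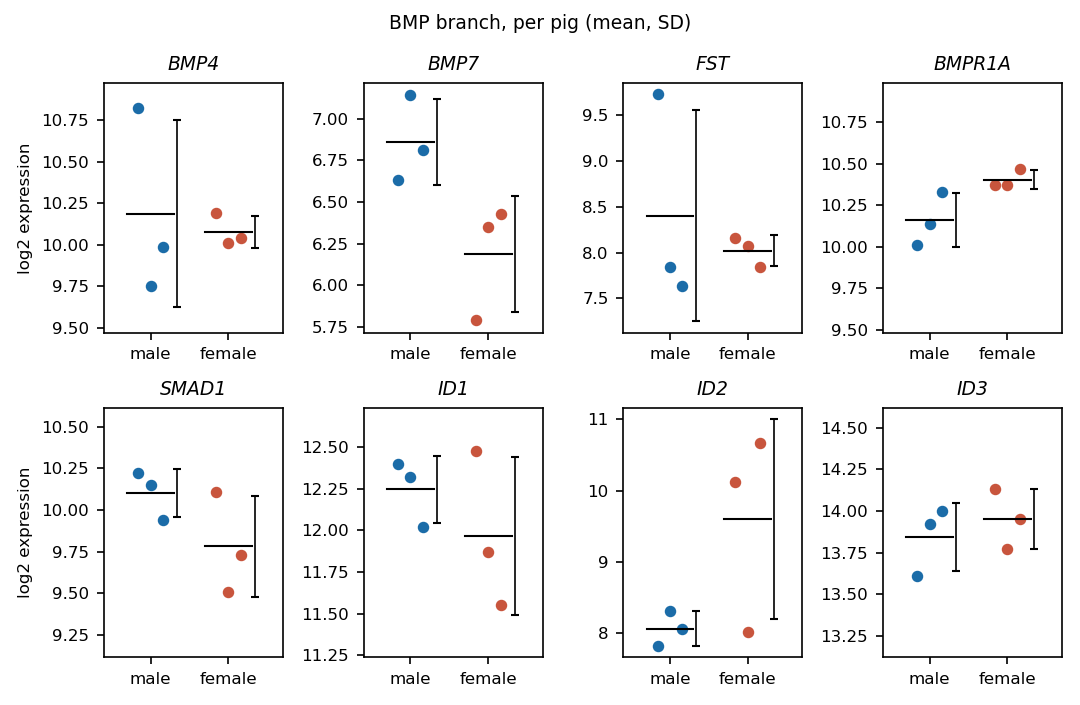
Log2 expression of BMP ligands, follistatin (FST), BMPR1A, SMAD1 and ID genes in each pig, males left and females right in each panel, with the mean (line) and SD (bar at the side, n = 3). Each panel has its own log2 axis. Male 1 stands above the other pigs for BMP4 and FST, females 1 and 3 stand above the other pigs for ID2, and the sexes are apart only for BMP7 and BMPR1A.

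Of 17 genes with more than 1 probe set, 8 had all probe sets on the same side, among them TGFB1, TGFB2, FZD4, LRP6 and SFRP1. The other 9 had probe sets on both sides of 0, and for these no probe set differed by more than 0.27 in absolute value. The spread between pigs of one sex was a median SD of 0.23 for the 44 genes and 0.17 for all probe sets.

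Further genes of the same pathways that the annotation named gave no call in either comparison with limma. SOX13, given above, is named only by the supplementary list and is not counted among them, and it passed with the CV filter (adjusted p = 0.0483). Of 24 other TGF-β and BMP pathway genes that were measured, 11 were higher and 13 lower in males, with a median difference of -0.07 and 8 at an unadjusted p under 0.05 (33.3%, against 17.5% of annotated genes). Without overlap of the sexes, 2 were higher and 6 lower in males (33.3% together, against 24.7% of annotated genes). These 8, named here after their values were seen, were FKBP1A (0.67) and ID4 (0.45), higher in males, and ZFYVE16 (-0.20), THBS1 (-0.51), DCN (-0.38), BGN (-0.44), FBN1 (-0.28) and ASPN (-0.55), lower in males. DCN, BGN, ASPN and FBN1 encode matrix proteins that bind or store TGF-β family ligands, and THBS1 can activate latent TGF-β. DCN is also one of the 10 valve interstitial and fibroblast markers, of which 9 were lower in males with a median difference of -0.21.

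Of 17 other WNT pathway genes, 10 were higher and 7 lower in males, with a median difference of 0.04 and 4 at an unadjusted p under 0.05 (23.5%, against 17.5% of annotated genes). The sexes did not overlap for 5 of them (29.4%), a share near the 24.7% of annotated genes. Besides TSPAN12 these 5, again named after their values were seen, were WLS (0.27), CSNK1A1 (0.21) and RHOA (0.40), higher in males, and CUL1 (-0.25), lower in males. WLS carries WNT ligands to the cell surface and CSNK1A1 marks β-catenin for degradation. Their differences were each under 0.5 on the log2 scale.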

How the data were processed

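Total RNA (400 ng per pig) from scraped aortic valve leaflets of 3 castrated male and 3 female pigs was hybridized to 6 arrays. The authors had background-corrected and normalized the arrays with RMA (R 2.12.0), and their deposited log2 values were used as they stand. Of 24123 probe sets, 124 controls were left out of the comparison over all probe sets. The annotation gave 1 gene for 10069 probe sets, several for 198 and none for 13732. The members, the gene and marker lists and the naming rule were chosen with earlier results of these data known.

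The sexes were compared by lmFit and eBayes of limma 3.58.1 (R 4.3.3, no covariate). Benjamini-Hochberg adjustment was over all 23999 probe sets, and again over the most variable 10%, ranked by the CV of the 6 log2 values. The methods name a CV filter without the share kept, and 10% was inferred from the adjusted p values of the supplementary list. They describe the filter as removing values unlike between replicates, so a filter on the pooled within-sex CV was an alternative. Calls needed an adjusted p under 0.05 and a 2-fold difference. Named genes were those called, those at an unadjusted p under 0.05 with a 2-fold difference, the highest and lowest of each role and a set of central pathway genes. The scripts were tested on simulated data. Alternatives were each array left out, a replicate block, an intensity trend, robust and array-weighted fits, median centring, other filters and other choices of probe sets. The number of arrays limits the precision. No probe or gene sequence was used here.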

Additional observations from a re-analysis of the deposited data

How the results depend on the processing

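Of the named genes' values under the alternatives, 501 kept their side of the threshold, 37 lost a call, 7 gained one and 0 reversed. The 501 include the many named genes that had no call to lose. Among the calls over all probe sets, NDP lost its call in 6 of 13 alternatives and ROR1 and TPBG each in 4 of 12. Of 14 alternatives with the CV filter, SFRP2 lost its call in 6, LEF1 and NDP in 5, ROR1 in 4, WIF1 in 3 and TPBG in 0. Over all probe sets, 3 members were called, 0 to 3 with 1 array left out (1, 0 and 3 without males 1, 2 and 3, and 1, 1 and 0 without females 1, 2 and 3, the call without female 2 being ID2), 0 with 1 probe set per annotated gene (which leaves out ROR1 and TPBG, and where NDP had an adjusted p of 0.0659) and 1 among the annotated members only. With the CV filter, 6 were called, 1 to 5 with 1 array left out (1, 3 and 5 without males 1, 2 and 3, and 2, 5 and 1 without females 1, 2 and 3) and 2 among the annotated members only. When the filter instead kept the less variable part of the array by the pooled within-sex CV, 0 members were called, and 26 of all 12061 probe sets kept. SFRP2 lost its call with robust eBayes, array weights and the top 20% by CV. The number of members without overlap, 11, was 11 to 20 with 1 array left out (20 without male 3, 18 without female 1 and 19 without female 2) and 7 among the annotated members only. Leaving out an array can only keep or raise this number, so its range is no check on the 11. Replicate numbers did not pair the pigs (correlations of the deviations of same-numbered arrays -0.10, 0.01 and 0.27), and the replicate block gave 3 and 6 calls. With 3 arrays per sex, differences that miss the threshold are not shown to be absent, and ROR1 in females, SFRP2 in females, WNT10B, DKK1 and BMPR1B lie near or under the 25th percentile of the array.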
